A study of Homo sapiens with 18 samples.

Results

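The clustered histone genes, which supply the H1, H2A, H2B, H3 and H4 proteins that package newly copied DNA, were followed through RNA-Seq of C4-2B cells, an androgen receptor–positive human prostate cancer line. The genes were taken by name: every gene whose symbol begins with HIST1H, HIST2H, HIST3H or HIST4H, leaving out names that end in PS with or without a digit. This gave 72 of the 26475 genes in the FPKM tables, comprising 6 H1, 17 H2A, 20 H2B, 14 H3 and 15 H4 genes. RefSeq lists 2 of the H2B genes, HIST2H2BA and HIST2H2BC, as pseudogenes. The cells, all labelled wild type, were treated with vehicle (VEH) or 0.1 μM of VIC-1911 (VIC), an inhibitor of the mitotic kinase AURKA, for 2 days. In a second experiment the treatment lasted 7 days and the agents were vehicle, VIC-1911 at 0.1 μM, the PARP inhibitor olaparib (OLA) at 1 μM, or both drugs at these doses (COMBO). Vehicle was DMSO. Each of the 6 groups held 3 libraries. The experiment asked which genes respond to either drug and to their combination.

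Replication-dependent histone genes are transcribed as cells enter and pass through S phase, from clusters of short genes without introns, under the coactivator NPAT. Their mRNAs normally end in a conserved stem-loop rather than a poly(A) tail. The stem-loop is bound by SLBP, which guides 3′ end processing and translation, and the mRNA is degraded quickly when DNA synthesis stops. Some members can also be read past the stem-loop into a polyadenylated mRNA, a form known from differentiated and nondividing cells. The libraries here were made from poly(A) RNA, so the values describe the fraction of histone mRNA that passed that selection, and neither total histone mRNA nor histone protein was measured.

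The library totals ran from 3245273 to 7184420 counts at 2 days and from 4967931 to 19684208 counts at 7 days. At 2 days the vehicle libraries held 3245273, 4513391 and 4545256 counts and the VIC-1911 libraries 7184420, 5107326 and 7025415. Every VIC-1911 library of 2 days was thus deeper than every vehicle library, which makes a minimum count easier to reach there. Histone genes took 1535 to 5875 counts of a library at 2 days and 2940 to 15343 counts at 7 days, or between 0.0392% and 0.0906% of its total. The 8 luminal prostate cancer cell markers used, which include the androgen receptor and KLK3, summed to 6766 to 7233 CPM (counts scaled to a common library total) in vehicle at 2 days and 12007 to 12369 CPM in vehicle at 7 days, with 7780 to 8783 CPM in the treated libraries of 7 days. The part of this difference in the histone values was not tested. Leukocyte markers summed to at most 1.17 CPM in any library, endothelial markers to at most 8.50 CPM and fibroblast markers to at most 18.7 CPM. The labels number the vehicle and VIC-1911 libraries of 7 days in a different run from the olaparib and combination libraries. A difference between these runs therefore cannot be told apart from olaparib wherever olaparib or combination libraries are set against vehicle or VIC-1911 libraries. The labels do not say that replicates came from separate cultures, so p-values measure the spread between these libraries, which may be technical. In bulk RNA, a change in the share of cells in S phase and a change in RNA per cell cannot be told apart.

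The stem-loop is the feature that sets these mRNAs apart from others, and it was looked for in the 120 bases after the stop codon of each gene in the GRCh38 genome (GENCODE v44 stop codons, RefSeq names). All 70 members annotated as protein coding held a match to the 16-base histone stem-loop consensus on their own strand and 0 held it on the other strand. Over 19900 protein-coding genes, 72 (0.362%) held a match, and the 2 that were not members were H2AX, the damage-signaling H2A variant, and H3-7. The stem is self-complementary, and its letters fell into few versions. The sequences of members that carry the results are given with 5 bases on either side, 5′ to 3′, with the stem-loop in capitals.
HIST1H1C (chr6:26055739-26055764, minus strand): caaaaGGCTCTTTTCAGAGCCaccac
HIST2H2BE (chr1:149886183-149886208, minus strand): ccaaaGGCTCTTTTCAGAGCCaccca
HIST3H2A (chr1:228457364-228457389, minus strand): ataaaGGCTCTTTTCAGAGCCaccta
HIST1H2BK (chr6:27146361-27146386, minus strand): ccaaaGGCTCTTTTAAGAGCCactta
HIST1H2BJ (chr6:27132316-27132341, minus strand): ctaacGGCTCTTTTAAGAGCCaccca
HIST1H2BD (chr6:26158582-26158607, plus strand): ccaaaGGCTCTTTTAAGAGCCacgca
HIST1H4H (chr6:26285126-26285151, minus strand): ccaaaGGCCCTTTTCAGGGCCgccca
HIST1H3E (chr6:26225591-26225616, plus strand): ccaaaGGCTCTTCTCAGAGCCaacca
HIST1H2AK (chr6:27837880-27837905, minus strand): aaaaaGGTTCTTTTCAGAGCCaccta
The version of HIST1H1C, HIST2H2BE and HIST3H2A was shared by 40 members, that of HIST1H2BK, HIST1H2BJ and HIST1H2BD by 10, and that of HIST1H4H by 10. The versions of HIST1H3E and HIST1H2AK occurred in 1 member each, as did those of 4 other members. HIST1H2BK, HIST1H2BJ and HIST1H2BD carry the same stem-loop letters. As described below, the first 2 had another pattern over the 7-day groups than HIST1H2BD. The part of the stem-loop letters in these patterns was not tested.

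Most members end in the annotation a few bases after the stem-loop, and 18 of the 70 have a GENCODE or RefSeq transcript that runs over 100 bases past it. These were HIST2H2BE, with 1729 bases, HIST1H2BK, with 8073 bases, and members of every class except H1. The 18 genes held 78.2% of all histone counts at 7 days. Their median level in vehicle at 7 days was 13.8 FPKM (fragments scaled per gene length and per library total), compared with 0.348 FPKM for the 52 genes with no such transcript. HIST1H1C, a linker histone whose annotated transcripts end 4 bases past the stem-loop, was nevertheless among the most abundant, at 58.9, 46.0 and 46.8 FPKM in the vehicle libraries of 7 days. Which 3′ end the counted reads came from was not tested, as the deposited tables give a single value per gene.

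Few members were well covered. Of the 72, 11 were listed at 0 FPKM in all 18 libraries, among them the gene pairs HIST2H2AA3 and HIST2H2AA4, HIST2H3A and HIST2H3C, and HIST2H4A and HIST2H4B, whose members are near-identical copies and could share reads. At least 10 counts in 3 libraries, the requirement for testing, were reached by 22 members at 2 days and 35 at 7 days. The 35 were 3 H1, 9 H2A, 12 H2B, 5 H3 and 6 H4 genes. Of the 37 genes that were not tested at 7 days, 36 averaged under 1 FPKM over the 12 libraries. The 3 genes HIST1H1C, HIST1H2BK and HIST2H2BE together took 56.2% to 58.2% of histone counts in vehicle at 7 days and 68.4% to 70.2% with VIC-1911.

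Summed over all members, histone genes took more of the library in every treated group than in its vehicle group. At 2 days the sum was 473, 519.8 and 487 CPM in the 3 vehicle libraries and 818, 833 and 749 CPM with VIC-1911. At 7 days it was 392, 409.9 and 425 CPM in vehicle, 805, 779 and 906 CPM with VIC-1911, 708, 714 and 718 CPM with olaparib and 873, 882 and 868 CPM with the combination. No treated library of 7 days overlapped with vehicle, whereas the ranges of VIC-1911 and the combination did overlap. Without the 3 leading genes the combination lay above every other library, with 164 to 183 CPM in vehicle, 244 to 269.6 CPM with VIC-1911, 242 to 249 CPM with olaparib and 311 to 319 CPM with the combination.

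**Figure D1:**
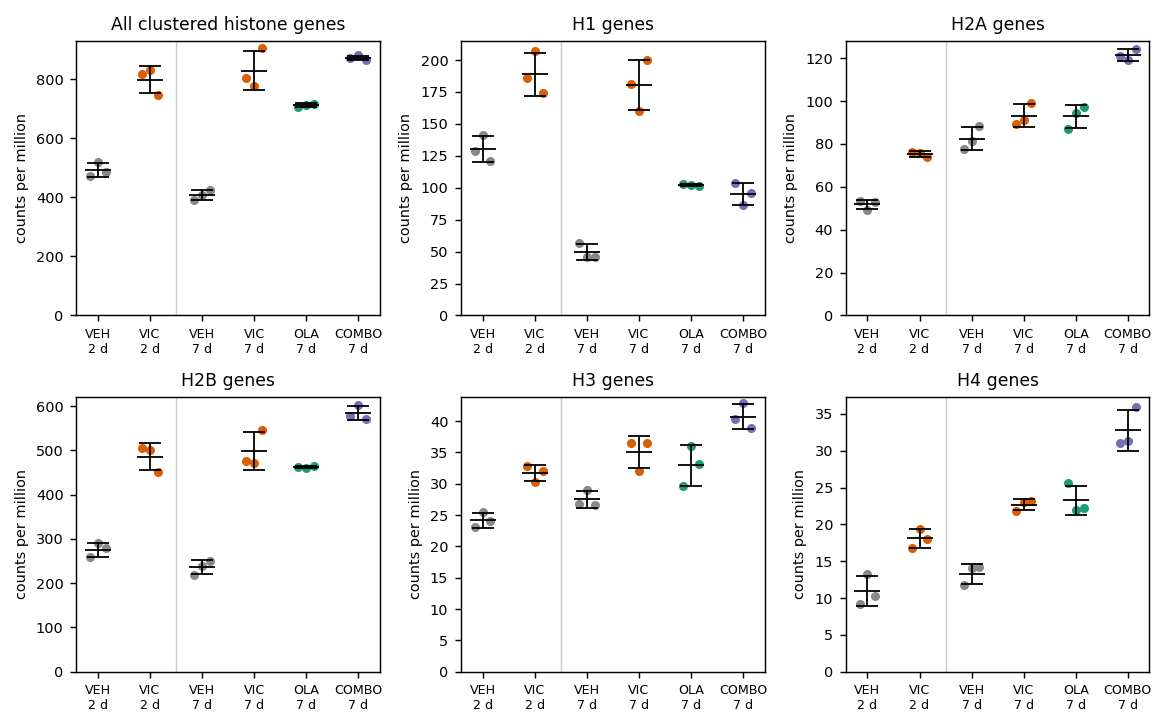
Summed CPM (y axis, from 0) of all 72 clustered histone genes and of each class in the 6 groups (x axis), with a point per library and bars for the mean ± SD of 3 libraries. Among the 7-day groups, H1 genes were highest with VIC-1911 alone (160.5 to 199.7 CPM), whereas H2B genes were highest with the combination (572 to 602 CPM).

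The classes differed in which 7-day group was highest. H1 genes, the linker histones, summed to 45.8 to 56.8 CPM in vehicle, 160.5 to 199.7 CPM with VIC-1911, 102 to 103 CPM with olaparib and 86.4 to 104 CPM with the combination, so that VIC-1911 libraries lay above all others. H2B genes, the most abundant class, ran from 219 to 250.0 CPM in vehicle to 472 to 547 CPM with VIC-1911, 459 to 464 CPM with olaparib and 572 to 602 CPM with the combination, which was the highest. For H2A genes the sums were 77.6 to 88.4, 89.3 to 99.2, 87.0 to 97.2 and 119 to 124 CPM in the same order, and the combination was again above the other groups. H3 genes summed to 26.6 to 29.1 CPM in vehicle and 38.9 to 42.9 CPM in the combination. H4 genes, the rarest class in these libraries, summed to 11.7 to 14.2 CPM in vehicle and 31.1 to 36.0 CPM in the combination. These sums carry no test.

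After 2 days of VIC-1911, 13 of the 22 tested histone genes rose and 0 fell at an adjusted p-value under 0.05 (edgeR's quasi-likelihood test, Benjamini-Hochberg adjustment over 12241 genes). In the background of all tested genes, 7.5% rose and 7.19% fell. With DESeq2 8 of the 22 were called higher. Of the other calls 2 were lost, HIST3H2A (0.40, adjusted p = 0.182) and HIST1H3H (0.46, adjusted p = 0.0997), and 3 genes were given no adjusted p. Every class was represented among the 13, with both tested H1 genes, 3 of 6 H2A, 6 of 10 H2B, 1 of 3 H3 and the single tested H4 gene. The median log2 fold change of the 22 was 0.66, compared with a median within 0.01 of 0 over all tested genes. A gene could be tested through its treated libraries alone. Members with a mean of at least 20 counts over the 6 libraries were also taken, and 12 of these 16 rose. This mean includes the treated libraries, so a gene could still enter through them, here and in the same counts for 7 days. The share of all genes called at this limit was not computed. With the study's 1.5-fold limit added, 10 of the 22 rose and 0 fell, against 0.825% and 1.33% of all tested genes.

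HIST2H2BE, an H2B gene of the chromosome 1 cluster (chromosome 1, 149884459 to 149886682), had 30.6, 30.9 and 31.4 FPKM in the vehicle libraries and 68.8, 67.7 and 58.8 FPKM with VIC-1911 at 2 days. The groups were far apart, and the log2 fold change (± standard error, here and below) was 1.07 ± 0.06 (adjusted p = 8.15e-16) in edgeR, or 2.09-fold. HIST1H2BC, an H2B gene of the large chromosome 6 cluster, went from 11.8, 15.1 and 13.6 to 33.4, 32.9 and 37.6 FPKM, with a log2 fold change of 1.32 ± 0.16 (adjusted p = 7.42e-08). Its exons overlap those of HFE on the opposite strand, and the strand setting of the counting is not given in the sources used here, so its counts are uncertain. HIST1H2BK, the most abundant H2B gene, had 131, 151 and 142 FPKM in vehicle and 234, 237 and 212 FPKM with VIC-1911, a log2 fold change of 0.69 ± 0.06 (adjusted p = 8.41e-12). For HIST1H1C, which encodes linker histone H1.2, the levels were 144, 153 and 142 FPKM and 209, 229 and 192 FPKM, and the log2 fold change was 0.53 ± 0.06 (adjusted p = 6.39e-08). All 3 treated libraries lay above all 3 vehicle libraries for each of these 4 genes. HIST1H4H, the only H4 gene tested at 2 days, rose with a log2 fold change of 0.90 ± 0.18 (adjusted p = 5.84e-04) from 12.04, 14.5 and 13.1 FPKM to 25.1, 31.0 and 28.7 FPKM. Its exons overlap those of an unnamed gene on the opposite strand, so its counts are uncertain as well, here and in the comparisons below. HIST1H2AC, an H2A gene, rose by 0.70 ± 0.12 (adjusted p = 5.20e-05) on the log2 scale, but shares exonic bases with another gene on its strand. Calls for HIST1H1E, HIST1H3H and HIST3H2A were less firm. HIST3H2A had 0.38 ± 0.13 (adjusted p = 0.0447) and was lost without VEH replicate 1 (0.27, adjusted p = 0.218), VEH replicate 3 (0.39, adjusted p = 0.114), VIC replicate 2 (0.34, adjusted p = 0.137) or VIC replicate 3 (0.37, adjusted p = 0.101). HIST1H1E had 0.86 ± 0.26 (adjusted p = 0.0203) and 0.71 (adjusted p = 0.122) without VEH replicate 3, and HIST1H3H had 0.46 ± 0.13 (adjusted p = 0.0113) and 0.42 (adjusted p = 0.0616) without VIC replicate 1.

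Transcripts that have no poly(A) tail of their own moved in the same direction at 2 days. The list of such RNAs, headed by the signal recognition particle RNAs RN7SL1 and RN7SL2, summed to 609 to 638 CPM in vehicle and 841 to 878 CPM with VIC-1911. Of its 5 tested genes 2 rose and 0 fell (7.5% and 7.19% of all genes). RN7SL1 rose by 0.61 ± 0.05 (adjusted p = 8.20e-12) on the log2 scale in edgeR and RN7SL2 by 0.38 ± 0.05 (adjusted p = 9.26e-08). The part of such carry-over through the poly(A) selection in the histone result was not tested. At 7 days the list ranged from 181 to 281 CPM in vehicle to 197 to 304 with VIC-1911, 172 to 286 with olaparib and 163 to 199 with the combination, and all groups overlapped with vehicle. With VIC-1911 and with olaparib 0 of the 9 genes tested at 7 days rose and 0 fell at an adjusted p under 0.05. Of all genes, 26.7% rose and 25.7% fell with VIC-1911, and 28.1% rose and 25.9% fell with olaparib. With the combination 4 of the 9 rose and 2 fell (28.6% and 28% of all genes). SNORD3A, the U3 small nucleolar RNA, rose by 2.39 ± 0.51 (adjusted p = 2.15e-04) and RN7SK, a regulator of transcription elongation, by 0.80 ± 0.25 (adjusted p = 0.00793), while the changes of RN7SL1, -0.46 ± 0.15 (adjusted p = 0.00879), and RN7SL2, -0.51 ± 0.14 (adjusted p = 0.00261), were downward. The part of these RNAs in the combination values given below was not tested either.

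After 7 days of VIC-1911, 21 of the 35 tested histone genes rose and 3 fell, compared with 26.7% and 25.7% of all 14409 tested genes (edgeR). The median log2 fold change of the 35 was 0.88. Of the 26 genes with a mean of at least 20 counts, 17 rose and 3 fell. At the additional 2-fold limit used by the study, 11 rose and 0 fell (3.46% and 3.43% of all tested genes). All 3 tested H1 genes, 6 of 9 H2A, 8 of 12 H2B, 2 of 5 H3 and 2 of 6 H4 genes rose.

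HIST1H2BJ, an H2B gene close to HIST1H2BK on chromosome 6, had the largest log2 fold change of the 35 genes. It had 4.67, 2.47 and 1.89 FPKM in vehicle and 19.6, 18.6 and 23.6 FPKM with VIC-1911, a log2 fold change of 2.65 ± 0.20 (adjusted p = 1.89e-12), or 6.28-fold. HIST1H1C, the most abundant H1 gene, went from 58.9, 46.0 and 46.8 FPKM to 189.9, 166 and 212 FPKM, with a log2 fold change of 1.85 ± 0.08 (adjusted p = 8.35e-18). HIST1H1B, which encodes the linker histone H1.5, had 0.529, 0.669 and 0 FPKM in vehicle and 2.701, 2.36 and 1.71 FPKM with VIC-1911, a log2 fold change of 2.09 ± 0.41 (adjusted p = 7.39e-05) on few reads. HIST1H2AM, an H2A gene that shares exonic bases with the H3 gene HIST1H3J on its strand, had 0.85 ± 0.16 (adjusted p = 6.50e-05), and HIST1H3D, which overlaps an unnamed gene, had 0.18 ± 0.18 (adjusted p = 0.404) and did not pass. In HIST1H2BJ, HIST1H1C and HIST1H1B the lowest VIC-1911 library exceeded the highest vehicle library. HIST1H2BK rose from 85.7, 83.9 and 91.2 to 202, 198 and 246 FPKM, with 1.27 ± 0.06 (adjusted p = 2.09e-16) on the log2 scale. HIST2H2BE, with 29.2, 33.3 and 35.7 FPKM in vehicle and 61.2, 59.9 and 65.7 FPKM with VIC-1911, showed a log2 fold change of 0.90 ± 0.06 (adjusted p = 6.53e-14). The H3 gene HIST1H3H had 18.1, 21.7 and 15.6 FPKM in vehicle and 33.3, 27.4 and 35.8 FPKM with VIC-1911, without overlap (0.71 ± 0.12, adjusted p = 8.93e-06). The H4 gene HIST1H4H reached 28.5, 31.8 and 34.4 FPKM from 13.8, 16.7 and 17.6 FPKM (0.96 ± 0.12, adjusted p = 5.72e-08), and HIST4H4, the lone member on chromosome 12, 4.80, 5.29 and 5.35 FPKM from 2.16, 2.57 and 2.75 FPKM (1.03 ± 0.25, adjusted p = 7.91e-04).

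**Figure D2:**
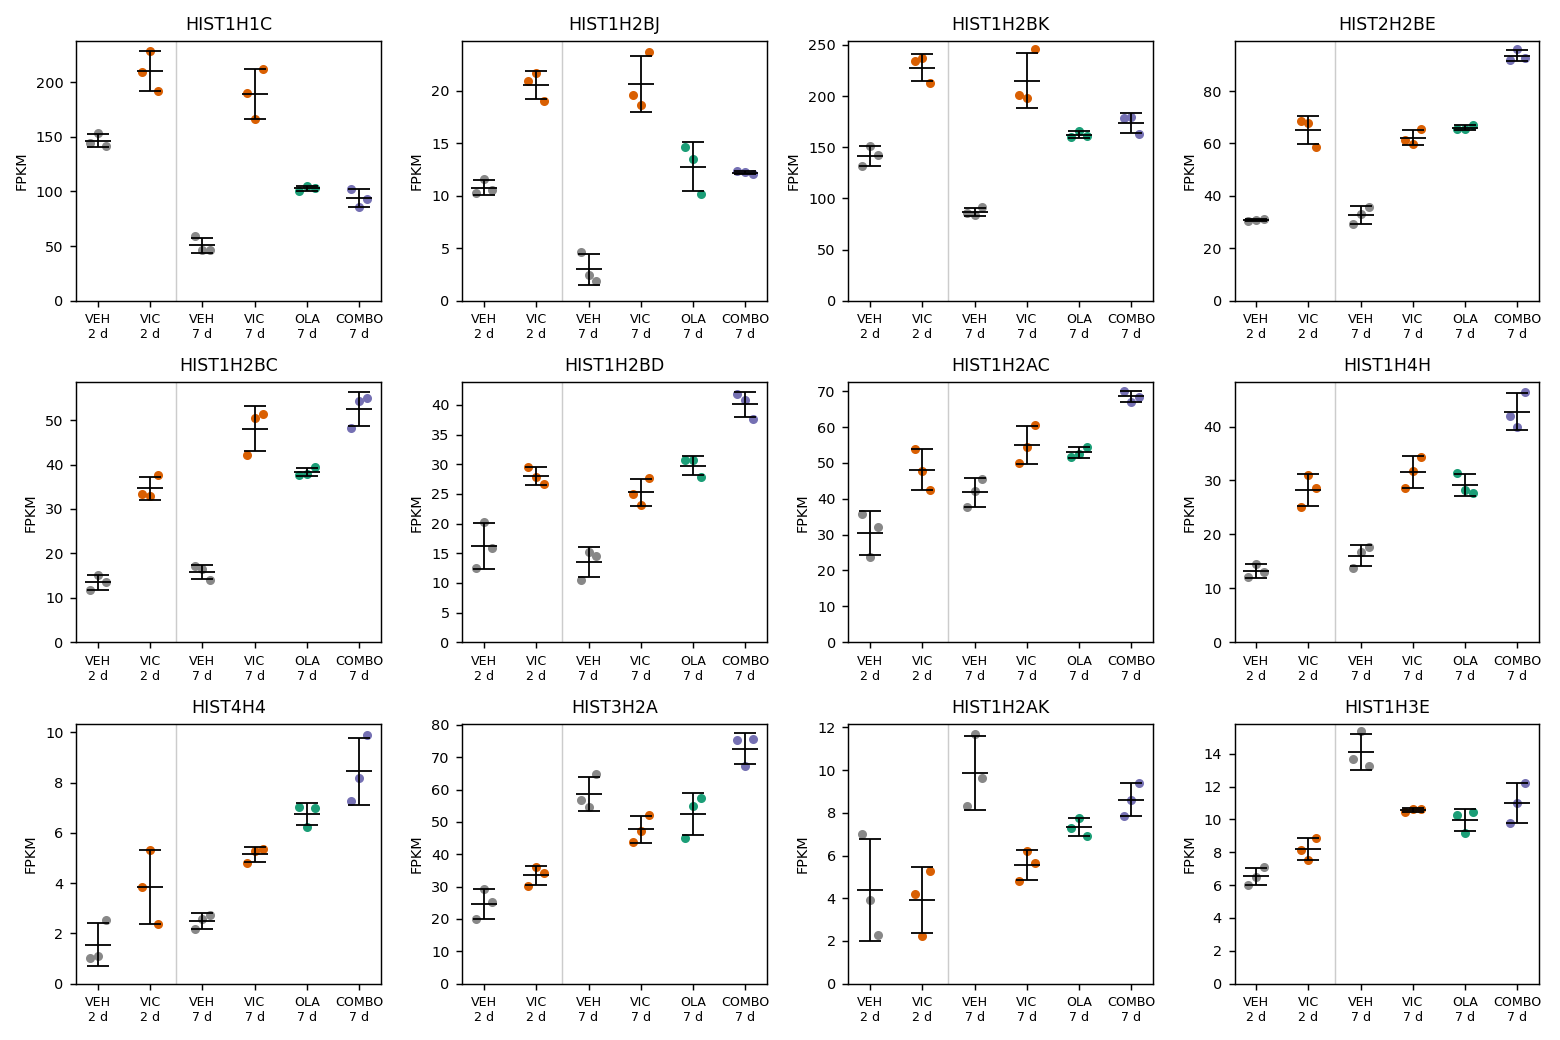
FPKM (y axes, from 0) of 12 histone genes in the 6 groups (x axes), with a point per library and bars for the mean ± SD of 3 libraries. Among the 7-day groups, HIST1H1C, HIST1H2BJ and HIST1H2BK were highest with VIC-1911 alone, HIST2H2BE, HIST1H2BD, HIST1H4H and HIST3H2A with the combination, and HIST1H3E in vehicle.

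With olaparib alone, 17 histone genes rose and 3 fell of 35, against 28.1% and 25.9% of all tested genes. The median log2 fold change of the 35 was 0.62, and 15 of the 26 genes with a mean of at least 20 counts rose. At the 2-fold limit 9 rose and 0 fell, against 3.63% and 3.53% of all tested genes. The olaparib, VIC-1911 and combination comparisons share the 3 vehicle libraries, so their values are given side by side and not as separate evidence. HIST1H2BJ had 14.6, 13.5 and 10.2 FPKM with olaparib, a log2 fold change over vehicle of 1.91 ± 0.21 (adjusted p = 8.57e-09). HIST1H1C, at 100.3, 105 and 103 FPKM, had 1.00 ± 0.08 (adjusted p = 2.74e-11), and HIST1H2BK, at 160.1, 166 and 161 FPKM, had 0.89 ± 0.06 (adjusted p = 9.29e-13). These libraries sat between vehicle and VIC-1911 for all 3 genes. For HIST1H2BD, a chromosome 6 H2B gene, the vehicle libraries had 10.6, 15.2 and 14.6 FPKM, the VIC-1911 libraries 25.0, 23.1 and 27.7 FPKM and the olaparib libraries 30.7, 30.8 and 27.9 FPKM. Its log2 fold change was 1.13 ± 0.10 (adjusted p = 1.57e-10) with olaparib and 0.88 ± 0.10 (adjusted p = 3.15e-08) with VIC-1911. HIST4H4 had 7.04, 6.25 and 6.99 FPKM with olaparib (1.43 ± 0.23, adjusted p = 6.24e-06), above all VIC-1911 libraries. The H1 gene HIST1H1B rose with 1.14 ± 0.46 (adjusted p = 0.0367), a call that was lost without VEH replicate 1 (1.18, adjusted p = 0.0701), VEH replicate 3 (0.84, adjusted p = 0.105) or OLA replicate 1 (0.91, adjusted p = 0.107).

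With the combination, 19 histone genes rose and 1 fell of 35 (28.6% and 28% of all tested genes), with a median log2 fold change of 0.89. Of the 26 genes with a mean of at least 20 counts, 18 rose. At the 2-fold limit, 12 rose and 0 fell, against 4.55% and 4% of all tested genes. HIST2H2BE reached 91.8, 95.9 and 92.7 FPKM, a log2 fold change over vehicle of 1.52 ± 0.06 (adjusted p = 8.64e-20), or 2.87-fold. HIST1H2BC reached 48.1, 54.3 and 55.1 FPKM from 17.1, 16.4 and 13.97 FPKM in vehicle (1.69 ± 0.10, adjusted p = 6.25e-15), and HIST1H2BD 41.8, 40.8 and 37.6 FPKM (1.58 ± 0.10, adjusted p = 2.09e-14). The 3 H2B genes had no overlap with vehicle. HIST4H4 was at 7.27, 8.18 and 9.88 FPKM (1.77 ± 0.22, adjusted p = 5.75e-08) and HIST1H4H at 41.9, 39.9 and 46.5 FPKM (1.43 ± 0.11, adjusted p = 3.79e-12). Another H4 gene, HIST1H4E, was called at 1.22 ± 0.29 (adjusted p = 8.11e-04), with 1.39, 3.86 and 1.503 FPKM in vehicle and 6.56, 4.73 and 5.87 FPKM in the combination. HIST1H2BJ, at 12.4, 12.2 and 12.02 FPKM, had 1.93 ± 0.21 (adjusted p = 4.41e-09), and HIST1H1C, at 102, 85.6 and 93.5 FPKM, had 0.88 ± 0.08 (adjusted p = 2.31e-10). Both stood well above vehicle and below VIC-1911 alone.

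**Figure D3:**
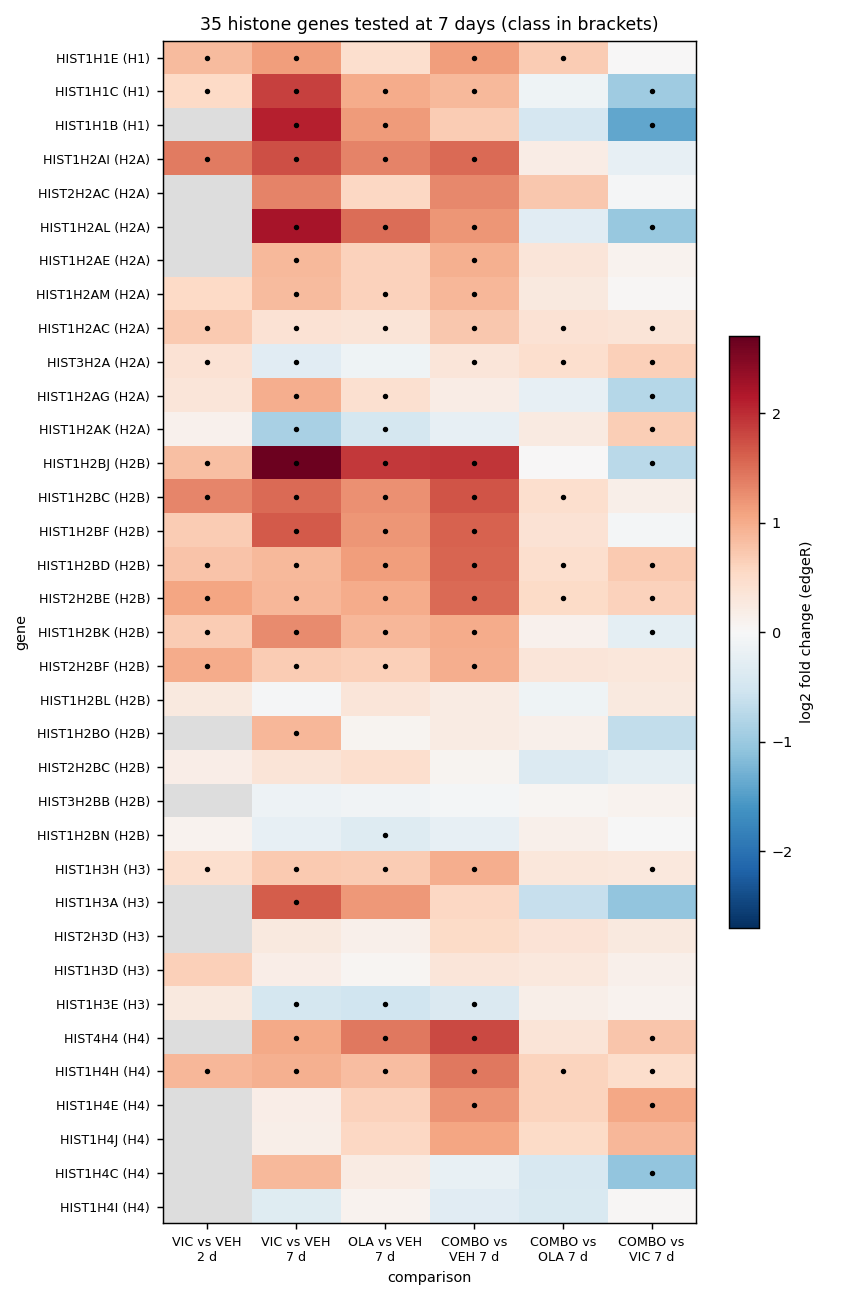
Log2 fold change (color, from edgeR) of the 35 histone genes tested at 7 days (y axis, by class) in 6 comparisons (x axis), with a dot where the adjusted p-value was under 0.05 and gray where the gene was not tested at 2 days. Of the 35 genes, 21 rose with VIC-1911, 17 with olaparib and 19 with the combination.

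The combination was then compared directly with each drug alone. Against VIC-1911, 9 histone genes were higher and 7 lower of 35, compared with 20.7% and 22.2% of all tested genes, so the share that moved in either direction was near the background. At the 2-fold limit 1 was higher and 3 were lower, against 2.23% and 1.82% of all tested genes. Members of 1 class could go either way. Of the H2A genes 3 were higher and 2 lower, of the H2B genes 2 and 2, and of the H4 genes 3 and 1. HIST1H1C was lower in the combination than with VIC-1911, with a log2 difference of -0.97 ± 0.07 (adjusted p = 9.13e-12), as were HIST1H2BJ at -0.72 ± 0.15 (adjusted p = 2.02e-04) and HIST1H1B at -1.41 ± 0.35 (adjusted p = 0.00190). HIST1H2BK was also lower, at -0.27 ± 0.06 (adjusted p = 4.48e-04). In contrast, HIST2H2BE was higher in the combination by 0.62 ± 0.05 (adjusted p = 7.91e-11), HIST1H2BD by 0.70 ± 0.09 (adjusted p = 1.63e-07) and HIST3H2A by 0.65 ± 0.08 (adjusted p = 1.38e-07). The H4 genes HIST1H4E (1.04 ± 0.29, adjusted p = 0.00433), HIST4H4 (0.74 ± 0.19, adjusted p = 0.00210) and HIST1H4H (0.47 ± 0.10, adjusted p = 2.75e-04) were higher as well. Another H4 gene, HIST1H4C, was lower on few reads, at -1.07 ± 0.38 (adjusted p = 0.0219). The lower H2A genes were HIST1H2AG (-0.76 ± 0.16, adjusted p = 3.66e-04) and HIST1H2AL (-1.03 ± 0.30, adjusted p = 0.00629). HIST1H2AC, with 50.1, 54.4 and 60.6 FPKM with VIC-1911 and 70.2, 67.1 and 68.4 FPKM in the combination, differed by 0.35 ± 0.07 (adjusted p = 1.90e-04). HIST1H3H was also called higher, at 0.28 ± 0.10 (adjusted p = 0.0331). Without VIC replicate 1, VIC replicate 2, COMBO replicate 1 or COMBO replicate 2 this call of HIST1H3H was lost, at 0.29 (adjusted p = 0.0527), 0.17 (adjusted p = 0.23), 0.27 (adjusted p = 0.0638) and 0.24 (adjusted p = 0.0929). For HIST1H2BC the difference was 0.15 ± 0.08 (adjusted p = 0.135) and did not pass.

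**Figure D4:**
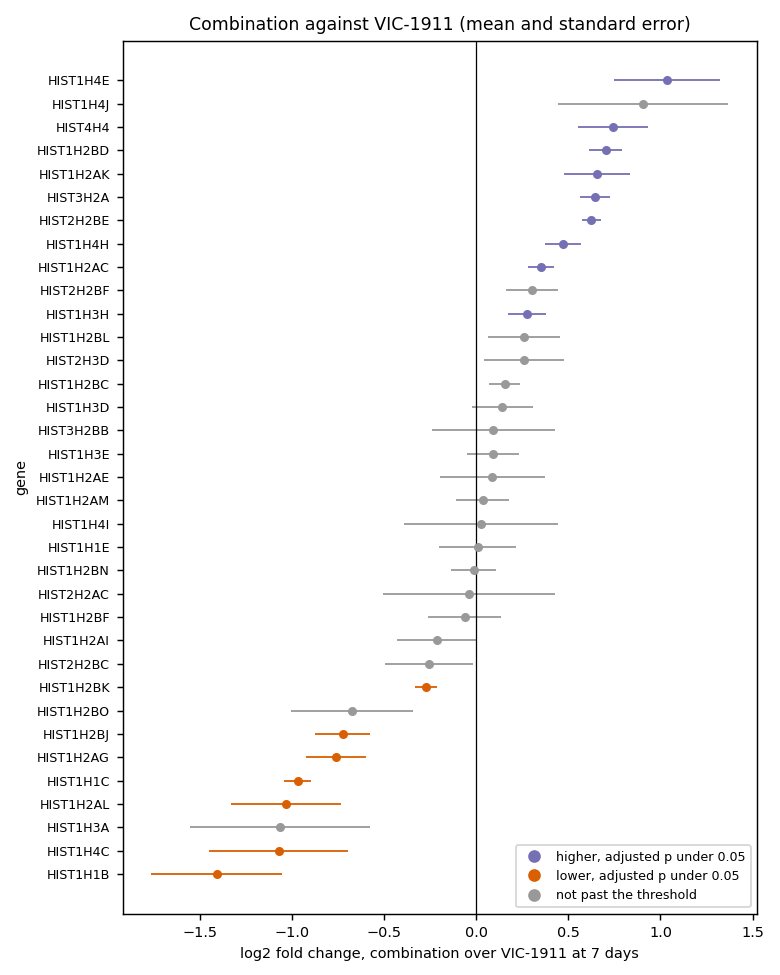
Log2 fold change of the combination over VIC-1911 at 7 days (x axis, point with its standard error from edgeR) for the 35 tested histone genes (y axis, sorted), colored by whether the adjusted p-value was under 0.05. The 9 higher genes include HIST2H2BE, HIST1H2BD and 3 H4 genes, and the 7 lower genes include HIST1H1C, HIST1H1B, HIST1H2BJ and the H4 gene HIST1H4C.

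Against olaparib, within the same run of library numbers, 7 histone genes were higher and 0 lower in the combination, compared with 4.55% and 6.95% of all tested genes. The median log2 fold change of the 35 was 0.27, and all 7 called genes had a mean of at least 20 counts. HIST2H2BE differed by 0.51 ± 0.05 (adjusted p = 1.16e-07), with 65.5, 65.6 and 67.1 FPKM with olaparib and 91.8, 95.9 and 92.7 FPKM in the combination. HIST1H4H differed by 0.60 ± 0.10 (adjusted p = 1.22e-04), HIST1H2BC by 0.46 ± 0.09 (adjusted p = 4.88e-04) and HIST1H2BD by 0.46 ± 0.09 (adjusted p = 5.78e-04). HIST3H2A (0.45 ± 0.08, adjusted p = 2.26e-04) and HIST1H2AC (0.38 ± 0.07, adjusted p = 4.96e-04) were the 2 H2A genes. The seventh, HIST1H1E, at 0.69 ± 0.23 (adjusted p = 0.0449), was lost without OLA replicate 1 (0.74, adjusted p = 0.0506), OLA replicate 2 (0.65, adjusted p = 0.154), OLA replicate 3 (0.64, adjusted p = 0.183), COMBO replicate 1 (0.60, adjusted p = 0.17) or COMBO replicate 3 (0.64, adjusted p = 0.144). HIST1H2BJ differed by 0.01 ± 0.16 (adjusted p = 0.976), HIST1H1C by -0.12 ± 0.08 (adjusted p = 0.378) and HIST1H2BK by 0.11 ± 0.06 (adjusted p = 0.261), and none of these passed. At the 2-fold limit 0 genes were higher and 0 lower, against 0.291% and 0.0902% of all tested genes.

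The interaction of the drugs is the effect of VIC-1911 in the presence of olaparib less its effect in the absence of olaparib, on the log2 scale. It was called below 0 at an adjusted p under 0.05 for 14 histone genes and above 0 for 3 (22.9% and 21% of all tested genes). Of the 26 genes with a mean of at least 20 counts, 11 were called below 0 and 3 above. At the 2-fold limit 10 were below 0 and 1 above, against 4.16% and 4.33% of all tested genes. The most negative values among abundant members were those of HIST1H2BJ, -2.64 ± 0.26 (adjusted p = 1.45e-09), and HIST1H1C, -1.97 ± 0.11 (adjusted p = 1.04e-14). VIC-1911 raised HIST1H1C by 1.85 ± 0.08 alone, and its difference in the presence of olaparib was -0.12 ± 0.08. For HIST2H2BE the interaction was -0.38 ± 0.08 (adjusted p = 1.75e-04), so the combination exceeded either drug but fell short of the sum of both log2 changes. HIST1H2BK, at -1.16 ± 0.09 (adjusted p = 5.02e-12), and HIST1H2BC, at -1.08 ± 0.13 (adjusted p = 1.22e-07), lay between. The interaction of HIST1H2AC was 0.00 ± 0.11 (adjusted p = 0.989) and that of HIST1H4H -0.36 ± 0.16 (adjusted p = 0.0613), and neither passed.

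A few members went the other way at 7 days. HIST1H3E, an H3 gene, had 13.7, 15.4 and 13.2 FPKM in vehicle, 10.4, 10.6 and 10.6 FPKM with VIC-1911, 10.2, 9.19 and 10.4 FPKM with olaparib and 9.77, 11.02 and 12.2 FPKM with the combination. All treated libraries were below all vehicle libraries. Its log2 fold changes were -0.48 ± 0.14 (adjusted p = 0.00410), -0.55 ± 0.14 (adjusted p = 0.00127) and -0.39 ± 0.13 (adjusted p = 0.0135) in that order. The last of these calls was lost without VEH replicate 2 (-0.32, adjusted p = 0.0891) or COMBO replicate 1 (-0.30, adjusted p = 0.0828). HIST1H2AK, an H2A gene, had 8.30, 11.7 and 9.61 FPKM in vehicle, 4.81, 6.22 and 5.66 FPKM with VIC-1911 and 7.83, 8.62 and 9.40 FPKM with the combination, and fell with VIC-1911, with a log2 fold change of -0.87 ± 0.18 (adjusted p = 1.41e-04). With the combination its difference from vehicle, -0.22 ± 0.16 (adjusted p = 0.250), did not pass. HIST3H2A, the H2A gene of the smaller chromosome 1 cluster, was among the most abundant members, with 56.7, 54.6 and 64.7 FPKM in vehicle. With VIC-1911 it had 43.8, 47.0 and 52.2 FPKM and fell (-0.31 ± 0.08, adjusted p = 0.00246), with olaparib it had 44.9, 54.9 and 57.2 FPKM (-0.12 ± 0.08, adjusted p = 0.240), and with the combination it had 75.2, 67.2 and 75.7 FPKM and rose (0.33 ± 0.08, adjusted p = 6.14e-04). Its interaction was 0.76 ± 0.12 (adjusted p = 3.15e-06), the opposite sign to that of HIST2H2BE. With olaparib, HIST1H2AK (-0.47 ± 0.17, adjusted p = 0.0211) was lost without VEH replicate 2 (-0.29, adjusted p = 0.226) or OLA replicate 3 (-0.41, adjusted p = 0.0999). HIST1H2BN, an H2B gene (-0.35 ± 0.12, adjusted p = 0.0185), was lost without VEH replicate 2 (-0.33, adjusted p = 0.0724) or OLA replicate 2 (-0.31, adjusted p = 0.0895).

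Many H2A and H2B genes stand head to head and share the stretch between their start sites. Among such pairs, 8 had both genes tested, including the H3 gene HIST1H3D beside HIST1H2BF by its RefSeq start site. Both genes rose with VIC-1911 at 7 days in 3 pairs and with the combination in 1 pair. Singly, 21 and 19 of the 35 tested members rose in these comparisons, and 26.7% and 28.6% of all tested genes. Whether paired genes moved together more often than unpaired members was not tested. HIST1H2BJ and HIST1H2AG, whose start sites lie 248 bases apart, both rose with VIC-1911, by 2.65 ± 0.20 and 0.97 ± 0.17 (adjusted p = 2.36e-05). Both were lower in the combination than with VIC-1911, with log2 differences of -0.72 ± 0.15 and -0.76 ± 0.16 (adjusted p = 3.66e-04). With the combination they parted, since HIST1H2BJ rose by 1.93 ± 0.21 and HIST1H2AG, at 0.21 ± 0.18 (adjusted p = 0.346), did not pass. HIST1H2BC and HIST1H2AC, 246 bases apart, both rose with the combination, by 1.69 ± 0.10 and 0.73 ± 0.07. In contrast, HIST1H2AI rose with VIC-1911 by 1.74 ± 0.27 (adjusted p = 2.98e-06) and its partner HIST1H2BL, 244 bases away, was at -0.04 ± 0.21 (adjusted p = 0.880). HIST1H2BF rose by 1.65 ± 0.25 (adjusted p = 2.09e-06) beside HIST1H3D, at 0.18 ± 0.18, which did not pass. RefSeq starts HIST1H3D at base 26199293, the same base as the H2A gene HIST1H2AD, which was not tested. The stem-loop of HIST1H3D lies at 26196784 to 26196809, so this pair rests on the annotated start alone. Of the pair HIST2H2BE and HIST2H2AC, 236 bases apart, only the H2B gene was well covered: HIST2H2AC had 1.08, 0.202 and 0.519 FPKM in vehicle and 0.695, 2.12 and 1.84 FPKM with the combination (1.29 ± 0.58, adjusted p = 0.0568). HIST1H2AK and HIST1H2BN, 194 bases apart, are the pair that includes 2 of the genes that fell with olaparib. HIST1H2AG, HIST1H2AI, HIST1H2BF, HIST1H2BL and HIST2H2AC were named for their place beside other members after their values had been seen.

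The promoters of 65 members were found in RefSeq's table (GRCh38.p14, 250 bases before to 50 after the start site). The octamer ATTTGCAT, the binding motif of POU2F1 that is known from H2B promoters, was present on either strand in 14 of 18 H2B, 11 of 16 H2A, 1 of 12 H3 and 0 of 6 H1 and 13 H4 promoters. Across 27305 genes it was present in 2.19%. The H3 promoter with an octamer was that of HIST1H3D, read from a RefSeq start site shared with the H2A gene HIST1H2AD. HIST1H3D is counted below among the tested members with an octamer. CCAAT was in 55 of the 65 promoters (84.6%, against 39.7% of all), TATAAA in 44 (67.7%, against 14%), and the H1 box AAACACA in all 6 H1 promoters and 3 others (against 6.94% of all genes). HIST2H2BE and HIST1H2BJ are printed because both hold the octamer and a TATAAA at like distances from the start site. They were also picked for their opposite differences between the combination and VIC-1911. The part of these motifs in the values was not tested. HIST1H1C is printed for its H1 boxes. The motifs are in capitals, on either strand.
HIST2H2BE (chr1:149886633-149886932, minus strand): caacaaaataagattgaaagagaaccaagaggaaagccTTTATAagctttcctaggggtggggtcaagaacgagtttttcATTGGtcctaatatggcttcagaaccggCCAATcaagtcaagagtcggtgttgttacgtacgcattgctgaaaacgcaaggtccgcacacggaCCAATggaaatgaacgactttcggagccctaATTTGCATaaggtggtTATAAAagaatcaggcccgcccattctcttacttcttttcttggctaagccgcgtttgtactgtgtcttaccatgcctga
HIST1H2BJ (chr6:27132746-27133045, minus strand): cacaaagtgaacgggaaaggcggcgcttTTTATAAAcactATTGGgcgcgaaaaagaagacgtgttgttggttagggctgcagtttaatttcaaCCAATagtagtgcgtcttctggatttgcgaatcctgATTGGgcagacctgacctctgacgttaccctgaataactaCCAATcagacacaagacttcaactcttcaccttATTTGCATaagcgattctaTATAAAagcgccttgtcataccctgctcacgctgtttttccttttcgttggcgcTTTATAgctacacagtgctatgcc
HIST1H1C (chr6:26056421-26056720, minus strand): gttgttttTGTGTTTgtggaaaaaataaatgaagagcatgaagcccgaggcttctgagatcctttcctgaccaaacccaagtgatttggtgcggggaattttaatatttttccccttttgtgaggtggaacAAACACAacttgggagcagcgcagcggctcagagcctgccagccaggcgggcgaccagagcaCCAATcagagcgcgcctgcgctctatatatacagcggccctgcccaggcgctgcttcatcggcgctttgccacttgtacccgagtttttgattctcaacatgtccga
The octamer began 46 bases before the start site in HIST2H2BE and 47 bases before it in HIST1H2BJ. With VIC-1911 at 2 days, 6 of 10 tested members with an octamer and 7 of 11 without it rose, where 7.5% of all genes rose. At 7 days these were 12 of 14 and 9 of 19 with VIC-1911 (26.7% of all genes), 10 of 14 and 7 of 19 with olaparib (28.1%), and 10 of 14 and 9 of 19 with the combination (28.6%). In the combination against VIC-1911, 2 of 14 with the octamer and 7 of 19 without it were higher (20.7%), and in the combination against olaparib 3 of 14 and 4 of 19 (4.55%). The order of the shares thus depended on the comparison, and their difference was not tested. A match is only a description of the letters, and most octamer promoters belong to the H2A and H2B classes.

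Genes of DNA replication did not follow the histone genes in every comparison. The 19 S phase genes, which include SLBP and, for example, PCNA, the MCM helicase subunits and the nucleotide supply enzymes RRM2 and TYMS, summed to 2216, 2206 and 2163 CPM in vehicle at 2 days and 1795, 1825 and 1797 CPM with VIC-1911. Of these genes 0 rose and 14 fell (7.5% and 7.19% of all genes), with a median log2 fold change of -0.28, while the histone sums were higher with VIC-1911 in the same libraries. At 7 days they summed to 801 to 917 CPM in vehicle, 1725 to 1804 CPM with VIC-1911, 1364 to 1484 CPM with olaparib and 1012 to 1076 CPM with the combination. With VIC-1911 19 rose, with olaparib 19 and with the combination 11, against the same vehicle libraries and beside 26.7%, 28.1% and 28.6% of all genes. In the combination all 19 were lower than with either drug alone, where 22.2% of all genes were lower against VIC-1911 and 6.95% against olaparib. HIST1H1C and HIST1H2BJ were also lower relative to VIC-1911, unlike HIST2H2BE, HIST1H2BD and HIST1H4H.

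**Figure D5:**
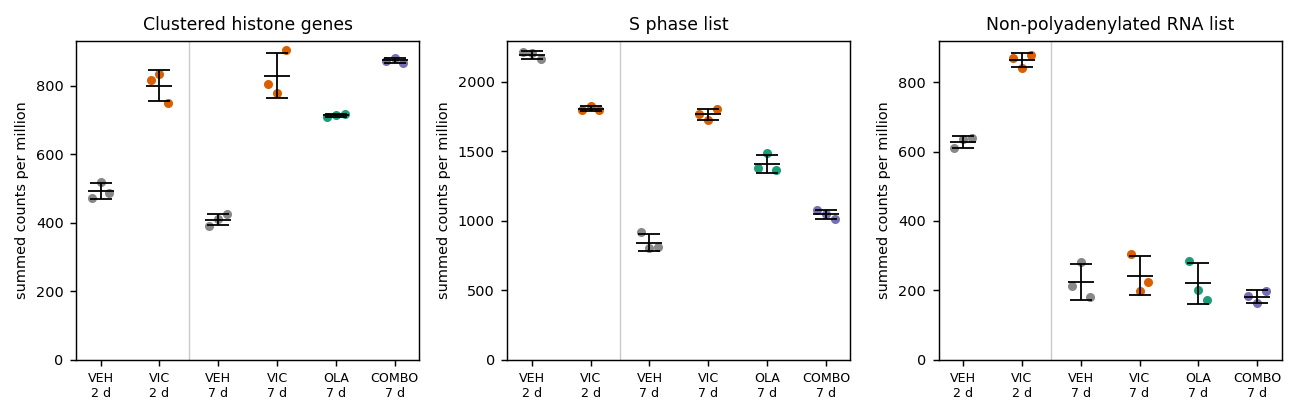
Summed CPM (y axes, from 0) of the clustered histone genes, of the 19 S phase genes and of the 26 RNAs without a poly(A) tail in the 6 groups (x axes), with a point per library and bars for the mean ± SD of 3 libraries. At 2 days VIC-1911 libraries were above vehicle for histone genes and the RNAs without a poly(A) tail, and below vehicle for S phase genes.

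Among 41 regulators of histone RNA, all tested, 4 rose and 8 fell with VIC-1911 at 2 days (7.5% and 7.19% of all genes). At 7 days 25 rose and 1 fell with VIC-1911 (26.7% and 25.7% of all genes), 21 rose and 3 fell with olaparib (28.1% and 25.9%), and 14 rose and 8 fell with the combination (28.6% and 28%). The share that rose with the combination was near the background. SLBP, the stem-loop binding protein, was at 0.04 ± 0.06 (adjusted p = 0.761) on the log2 scale at 2 days. At 7 days it rose by 0.83 ± 0.07 (adjusted p = 7.34e-12) with VIC-1911, 0.55 ± 0.07 (adjusted p = 4.59e-08) with olaparib and 0.32 ± 0.07 (adjusted p = 1.37e-04) with the combination. The transcription coactivator NPAT had 0.00 ± 0.10 (adjusted p = 0.996) with VIC-1911 and -0.06 ± 0.10 (adjusted p = 0.610) with the combination, and its partner CASP8AP2 (FLASH) had 0.13 ± 0.14 (adjusted p = 0.443) and 0.14 ± 0.14 (adjusted p = 0.388). None of these 4 values passed. CCNE1 and CDK2, the cyclin and kinase that act on NPAT, rose with VIC-1911 by 1.02 ± 0.10 (adjusted p = 7.15e-10) and 0.89 ± 0.06 (adjusted p = 1.26e-12). With the combination they rose by 0.65 ± 0.10 (adjusted p = 3.46e-06) and 0.23 ± 0.07 (adjusted p = 0.00436). POU2F1, which binds the octamer, fell with the combination, at -0.20 ± 0.08 (adjusted p = 0.0414).

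Of the 16 genes of 3′ end processing, 13 rose with VIC-1911 at 7 days and 7 rose and 2 fell with the combination, for which 28.6% of all genes rose and 28% fell. The cap-binding subunit NCBP2 rose with the combination by 0.55 ± 0.05 (adjusted p = 1.01e-10), and the Sm proteins SNRPF and SNRPD3 by 0.46 ± 0.07 (adjusted p = 7.34e-07) and 0.35 ± 0.05 (adjusted p = 1.10e-06). Of the 8 decay genes, 1 rose and 4 fell with the combination, among them the exonuclease DIS3L2 (-0.36 ± 0.07, adjusted p = 1.19e-04) and the exosome nuclease EXOSC10 (-0.24 ± 0.05, adjusted p = 3.01e-04), while the helicase UPF1, which acts in histone mRNA decay, rose by 0.14 ± 0.04 (adjusted p = 0.00599). Among the 10 genes of histone chaperones and supply, 4 rose and 1 fell. NASP, a chaperone of H3 and H4, rose by 0.30 ± 0.05 (adjusted p = 9.51e-06), whereas the H2A and H2B chaperones NAP1L4 and NAP1L1 moved apart, at 0.66 ± 0.05 (adjusted p = 3.01e-12) and -0.64 ± 0.04 (adjusted p = 1.06e-13). AURKA, the target of VIC-1911, had 0.24 ± 0.06 (adjusted p = 0.00755) at 2 days and 1.86 ± 0.10 (adjusted p = 4.24e-16) at 7 days with VIC-1911, and 0.11 ± 0.11 (adjusted p = 0.385) with the combination.

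Histone variant genes outside the clusters, whose mRNAs are mostly polyadenylated and which are used also outside S phase, did not share the rise at 2 days: 1 of 11 tested rose and 6 fell (7.5% and 7.19% of all genes). At 7 days 6 rose and 1 fell with VIC-1911 (26.7% and 25.7%), 4 rose and 3 fell with olaparib (28.1% and 25.9%), and 3 rose and 4 fell with the combination (28.6% and 28%). H2AFX, the gene of H2AX and 1 of the 2 non-members whose stop codon is also followed by a stem-loop, had -0.19 ± 0.05 (adjusted p = 0.00967) at 2 days. It rose with VIC-1911 at 7 days (1.29 ± 0.07, adjusted p = 5.52e-16) and was lower in the combination than with VIC-1911 (-1.05 ± 0.07, adjusted p = 9.69e-14). The linker histone gene H1F0 had 0.00 ± 0.05 (adjusted p = 0.949) with VIC-1911 and fell with olaparib (-0.63 ± 0.05, adjusted p = 2.48e-11). These 2 variant genes, and the RNAs without a poly(A) tail described above, were chosen after their values had been seen.

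The VIC-1911 log2 fold change over vehicle was called higher at 7 than at 2 days for 3 of 33 histone genes and lower for 2. Of all 13832 genes, 14.6% and 14.2% were called (edgeR, both times in a single fit). At the 2-fold limit these were 2 and 0 genes, against 2.82% and 1.76%. The 3 were HIST1H2BJ (1.82 ± 0.30, adjusted p = 3.98e-06), HIST1H1C (1.31 ± 0.11, adjusted p = 1.28e-13) and HIST1H2BK (0.57 ± 0.09, adjusted p = 2.35e-06), and the 2 were HIST3H2A (-0.71 ± 0.16, adjusted p = 4.21e-04) and HIST1H3E (-0.76 ± 0.28, adjusted p = 0.0388). In the last 2 genes the estimate changed sign, from 0.38 ± 0.13 at 2 days to -0.31 ± 0.08 at 7 days in HIST3H2A and from 0.27 ± 0.25, which did not pass, to -0.48 ± 0.14 in HIST1H3E. In HIST1H1C the vehicle libraries had 144, 153 and 142 FPKM at 2 days and 58.9, 46.0 and 46.8 FPKM at 7 days, while the VIC-1911 libraries had 209, 229 and 192 and 189.9, 166 and 212 FPKM. The larger effect thus went with a lower vehicle level, and the treated levels overlapped between the times. HIST1H2BJ had the same arrangement, with 10.2, 11.6 and 10.5 FPKM in vehicle at 2 days against 4.67, 2.47 and 1.89 FPKM at 7 days. HIST2H2BE had like vehicle levels at both times, and its time difference, -0.18 ± 0.09 (adjusted p = 0.138), did not pass. The call of HIST1H3E was lost in 8 of 12 fits that left out 1 library, with values from -0.83 to -0.59 and adjusted p from 0.0524 to 0.17. The libraries were VEH replicates 1, 2 and 3 and VIC replicate 3 of 2 days, and VEH replicate 2 and VIC replicates 1, 2 and 3 of 7 days. The time points were separate experiments, so time and experiment cannot be told apart.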

How the data were processed

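Poly(A) RNA of C4-2B cells was sequenced in 18 libraries. The authors trimmed the reads with Trimmomatic, mapped them to GRCh38 (hg38 in the labels) and counted them per gene with STAR, for which the submitters' processing notes give version 2.6.0 and the study's methods another version. The labels and the methods also name different RNA isolation kits and versions of the library kit. Strand setting and treatment of reads that map to several genes are not given in the sources used here. The deposited raw counts are whole reads per gene, and the deposited FPKM values were made by the authors with a script of their own. Counts were tested with edgeR 4.0.16 (quasi-likelihood, TMM scaling) in R 4.3.3, for genes with at least 10 counts in 3 libraries, with Benjamini-Hochberg adjustment over all tested genes and a call at an adjusted p under 0.05. All 12 libraries of 7 days entered 1 fit. FPKM is shown per library, and sums are CPM, counts scaled to a common library total. A count of 0 allows up to 3 counts, for counting error only. The fit was tested on simulated data. Alternatives were DESeq2 1.42.0, limma 3.58.1 on log2(FPKM + 0.1) and log2(FPKM + 1), other scalings, no filter, the study's fold limits, fits of the compared groups alone, a replicate block and leaving out each library. The members and lists were chosen with earlier results of these data known. Genes were named by a rule: the 3 most abundant tested members of each class, up to 5 members called in each direction in each comparison with vehicle, the 3 with the largest change in the combination, the leading members of the interaction and time difference, and the leading regulators of each kind. A luminal marker was left out of the marker sum and is not reported here.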

Additional observations from a re-analysis of the deposited data

Results flagged for a closer look

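For some histone genes the effect of VIC-1911 itself differed between conditions, by a test of that difference in edgeR (Benjamini-Hochberg adjustment over all tested genes). The log2 change with VIC-1911 in the presence of olaparib less that in its absence at 7 days was tested in 35 genes. It was called below 0 at an adjusted p under 0.05 for 14 genes and above 0 for 3 (22.9% and 21% of all tested genes). Of the 26 genes with a mean of at least 20 counts, 11 were called below 0 and 3 above. Among genes named by the rule, the log2 differences called below 0 were -2.64 for HIST1H2BJ, -2.55 for HIST1H1B (on few reads), -1.97 for HIST1H1C, -1.16 for HIST1H2BK, -1.08 for HIST1H2BC, -0.59 for HIST1H2AM, -0.42 for HIST1H2BD, -0.41 for HIST1H3H and -0.38 for HIST2H2BE. The remaining genes called below 0 were HIST1H2AL (-2.532), HIST1H3A (-2.243), HIST1H2AI (-1.547), HIST1H2BF (-1.265) and HIST1H2AG (-1.191). In vehicle HIST1H2AL had only 7, 6 and 2 counts and HIST1H3A 3, 3 and 6. Both were tested through their treated libraries alone, so their values rest on few reads. Those called above 0 were 1.12 for HIST1H2AK, 0.76 for HIST3H2A and 0.64 for HIST1H3E. In these 3 genes the change with VIC-1911 alone was below 0, at -0.87, -0.31 and -0.48, and that in the presence of olaparib was 0.25, 0.45 and 0.16, of which HIST3H2A alone passed. The call of HIST1H2AM was lost without VEH replicates 2 or 3, VIC replicate 1, OLA replicates 2 or 3, or COMBO replicates 1 or 3 (-0.58 to -0.49, adjusted p 0.0541 to 0.104). That of HIST1H3H was lost without VEH replicates 1 or 3, VIC replicates 1 or 3, OLA replicates 2 or 3, or COMBO replicate 3 (-0.43 to -0.32, adjusted p 0.0542 to 0.139), and that of HIST1H2BD without VEH replicate 1 (-0.24, adjusted p = 0.123) or VIC replicate 3 (-0.35, adjusted p = 0.0584).

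The log2 change with VIC-1911 at 7 days less that at 2 days was called above 0 for 3 genes of 33 and below 0 for 2. These shares were under those of all tested genes (14.6% and 14.2%). The values called above 0 were 1.82 for HIST1H2BJ, 1.31 for HIST1H1C and 0.57 for HIST1H2BK. Those called below 0, in which the estimate changed sign between the times, were -0.76 for HIST1H3E and -0.71 for HIST3H2A. The call of HIST1H3E was lost in 8 of the 12 fits without 1 library, as given in the report.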

How the results depend on the processing

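Counts of genes, interactions and time differences in this section are of calls at an adjusted p under 0.05. Of 1483 values of named genes under the alternatives, 1414 kept their direction and their side of the threshold, 69 kept only their direction and 0 reversed. Only the 94 results called in the main fit entered, and values without an adjusted p were left out. Most alternatives reuse the same libraries, so these numbers do not measure agreement over all results. With DESeq2, 8 genes rose with VIC-1911 at 2 days, 1 fell with olaparib and 1 time difference was below 0. DESeq2 gave no adjusted p to 10 of the 22 members at 2 days, 3 of which edgeR had called. With the study's fold limit, 11 rose and 0 fell with VIC-1911 at 7 days, 9 and 0 with olaparib, 12 and 0 with the combination, 0 were higher in the combination than with olaparib, 1 higher and 3 lower than with VIC-1911, 1 interaction was above 0, and 0 time differences were below 0. With limma on either FPKM scale, 2 genes fell with the combination and 5 time differences were above 0. Without scaling, or without the filter, 1 time difference was below 0. The causes were not tested, except that the fold limit drops smaller changes by construction.

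Leaving out 1 library gave 11 to 13 genes that rose with VIC-1911 at 2 days, 19 to 21 that rose at 7 days, 15 to 18 that rose and 1 to 3 that fell with olaparib, and 18 to 20 that rose and 0 to 1 that fell with the combination. It gave 6 to 7 higher genes against olaparib, 8 to 9 higher against VIC-1911, 11 to 15 interactions below 0, and 3 to 4 time differences above and 1 to 4 below 0.

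Deviations of same-numbered libraries from their group means correlated at -0.003 to 0.044 at 2 days and -0.036 to 0.111 at 7 days. For libraries with different numbers the ranges were -0.032 to 0.028 and -0.083 to 0.098. With 3 libraries in a group, these values cannot decide whether replicate numbers pair the libraries. The main fit held no replicate block. With the replicate block, 13 genes rose with VIC-1911 at 2 days, 21 at 7 days, 16 with olaparib and 22 with the combination.

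Per TMM-scaled library size, all members summed to 861.7 CPM with the combination and 706.1 CPM with olaparib, where H1 genes summed to 101.3 and H2B genes to 457.3 CPM. Without near-identical copies, H3 genes summed to 37.92 CPM with the combination, 25.65 CPM in vehicle at 7 days and 30.33 CPM with VIC-1911 at 2 days. The 37 members under the count filter at 7 days were not tested, and 11 of them were listed at 0 FPKM in all libraries.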
